A study of Mus musculus with 42 samples.

Results

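Lungs of mice given the highest dose of BkF (benzo(k)fluoranthene), one of the polycyclic aromatic hydrocarbons (PAHs) formed when organic matter burns, were compared with the lungs of vehicle control mice. The comparison rested on 8 lung arrays, 4 from the high dose and 4 from the vehicle, out of 42 arrays in the series. They were chosen by dose group and tissue alone, as the sample labels give them. All animals were male Muta™Mouse, a transgenic strain that carries a bacterial reporter gene for mutation assays, and were about 11 weeks old. BkF in olive oil was given by oral gavage once a day for 28 days, and the right lung lobe was collected 72 hours after the last dose. The high dose (D3) was 100 mg/kg-bw/day in mice 16, 17, 19 and 20, and the vehicle group (D0) was mice 1, 2, 3 and 4. Mice of the low dose (D1, 3 mice at 25 mg/kg-bw/day) and of the medium dose (D2, 4 mice at 50 mg/kg-bw/day) shared the fit, so that the estimate of the spread came from all 15 lung arrays. Each array was 1 mouse. Group sizes were lowered during the study by accidental lung puncture at gavage, per the published methods, and RNA came from a random slice of the lobe.

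The aryl hydrocarbon receptor (AhR) is a transcription factor that PAHs bind. With its partner Arnt it occupies short DNA elements beside its target genes and switches on cytochrome P450 family 1 oxidases, conjugating enzymes and its own feedback inhibitors. In the lung, which PAHs reach through the blood after oral dosing, these oxidases turn PAHs into reactive metabolites that form bulky DNA adducts. The core of the element is GCGTG. Since the battery of genes under AhR control is central to this comparison, the 250 bases before the transcription start are shown for 4 genes of that battery that were called, with each GCGTG or its reverse complement CACGC in capitals. They come from RefSeq, assembly GRCm38.p6, and are given 5′ to 3′ on the strand of the gene.
Cyp1a1, chr9:57697363-57697612, plus strand: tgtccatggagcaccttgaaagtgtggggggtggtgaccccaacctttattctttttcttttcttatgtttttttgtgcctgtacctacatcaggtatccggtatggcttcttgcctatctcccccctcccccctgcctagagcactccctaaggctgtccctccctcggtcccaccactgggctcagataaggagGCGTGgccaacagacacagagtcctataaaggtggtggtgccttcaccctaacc
Cyp1b1, chr17:79715062-79715311, minus strand: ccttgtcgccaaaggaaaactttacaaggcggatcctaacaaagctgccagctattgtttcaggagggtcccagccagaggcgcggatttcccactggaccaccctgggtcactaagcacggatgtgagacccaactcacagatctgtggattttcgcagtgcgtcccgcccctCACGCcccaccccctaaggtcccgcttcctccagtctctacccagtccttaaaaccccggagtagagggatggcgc
Ahrr, chr13:74292332-74292581, minus strand: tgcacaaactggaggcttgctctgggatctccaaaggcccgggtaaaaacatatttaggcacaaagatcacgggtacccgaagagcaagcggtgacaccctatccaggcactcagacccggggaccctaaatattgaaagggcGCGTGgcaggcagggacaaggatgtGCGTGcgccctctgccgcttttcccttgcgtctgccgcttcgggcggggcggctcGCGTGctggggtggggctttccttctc
Tiparp, chr3:65528197-65528446, plus strand: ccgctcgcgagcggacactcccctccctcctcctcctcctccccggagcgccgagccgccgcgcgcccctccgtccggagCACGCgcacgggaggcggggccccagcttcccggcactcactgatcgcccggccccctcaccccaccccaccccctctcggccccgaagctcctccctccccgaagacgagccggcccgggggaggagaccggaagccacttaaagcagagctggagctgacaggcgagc
Ahrr had 3 such cores, whose first bases lay 107, 82 and 27 bases before the start. Cyp1a1 had 1, at 54 bases before the start, and Cyp1b1 and Tiparp had 1 each on the opposite strand, at 76 and 170 bases. The window of Nqo1 had 0, and sequence outside the 250 bases was not searched for any gene. Of the 20 named genes described below, 16 had a window in the table, and the core was found in 4 of 8 genes that rose and 2 of 8 that fell. The core was present in 28.2% of all 32851 windows of the same length, so 5 letters are common by themselves, and a match is a description of the sequence only.

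Values below are log2 ratios of lung RNA (red dye) over a reference RNA pooled from mouse cell lines (green dye), normalised by loess within each array, and differences are D3 minus D0 on the log2 scale. A probe was called where limma, with the slide as a block, gave a Benjamini-Hochberg adjusted p no higher than 0.05 together with a change of 1.5-fold or more. Each of the 4 slides held 1 vehicle and 1 high-dose lung array, always at the same places, so the place on the slide and the dose cannot be told apart. Of 55681 probes, 32701 were tested, and between 40.6% and 60.0% of probes were well above background per array. Alveolar type 2 markers, which define distal lung epithelium, had mean log2 ratios of 4.56 to 4.95 on vehicle arrays and 4.60 to 5.05 on high-dose arrays. Over all pairs of the 8 arrays, Pearson's r across probes was 0.89 to 0.97. The 10 spiked-in control RNAs had log2 ratios 0.27 to 0.49 higher at D3, while the median difference of all tested probes was 0.0039. Their mean was 1.40 on the array of high-dose mouse 20, 0.55 to 0.94 on the other high-dose arrays and 0.46 to 0.67 on vehicle arrays. The part of the spike-in shift in single results was not tested. One medium-dose array, mouse 12, carried skeletal muscle RNA, with a mean log2 ratio of 5.20 over the skeletal muscle markers against at most −0.49 on the high-dose arrays. That array also had macrophage markers at 4.53 and inflammatory cytokines and chemokines at 0.575. The other lung arrays were at most at 3.01 and −0.69 in these lists.

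In the lung, 26 probes were called between the high dose and the vehicle, which is 0.0795% of those tested. Of these, 12 rose (0.0367%) and 14 fell (0.0428%), and the 21 probes that have a name belong to 20 genes. Cyp1a1, Cyp1b1 and Ahrr of the AhR battery had the largest increases among them, and Grp, the gene of a neuropeptide, the largest decrease in these ratios. All 26 probes moved the same way on all 4 slides, and in the red channel alone all 26 also moved in the direction of the ratio. The red channel is part of that ratio, and the probes were called from the same ratios. This agreement and the group overlaps given next describe the called probes and are no separate test. All 12 probes that rose were above every vehicle array, and 10 of the 14 that fell were below every vehicle array, whereas over all tested probes 2.93% had every high-dose array above every vehicle array and 2.35% below, 5.28% together. Before adjustment, 4192 probes (12.8%) had a p under 0.05, of which 2037 (6.23%) were higher and 2155 (6.59%) lower. The probe of Klf2, 0.97 higher, lay just outside the threshold with an adjusted p of 0.0544.

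**Figure D1:**
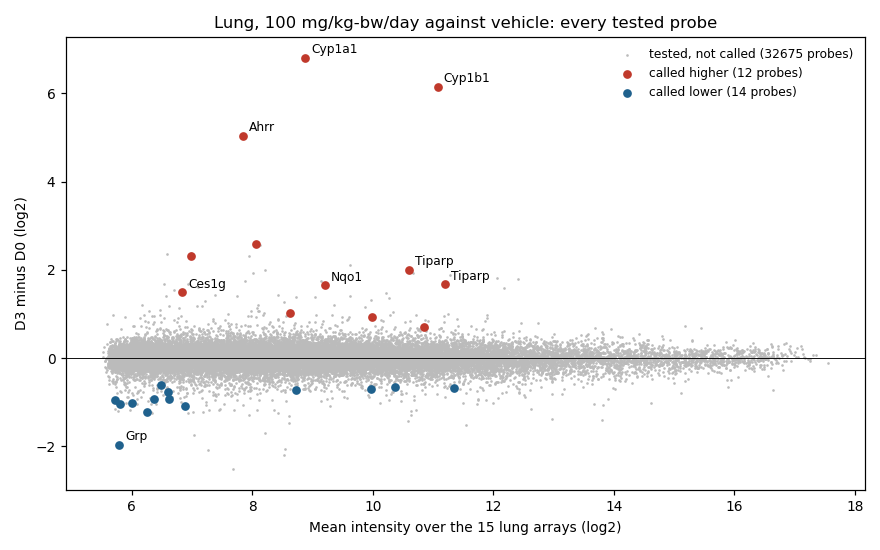
Difference between high-dose and vehicle lungs (y axis, log2) against mean intensity over the 15 lung arrays (x axis, log2) for each of the 32701 tested probes, with the 12 probes called higher in red and the 14 called lower in blue. Cyp1a1, Cyp1b1 and Ahrr stand above 5 on the log2 scale, and the probes called lower have a median intensity of 6.54.

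The number of called probes depended on single arrays. It was 172, with all 26 among them, when the medium-dose array of mouse 12 was left out of the shared fit. It was 2 without vehicle mouse 1 (Cyp1a1 and Ahrr), 2 without mouse 2 (Nqo1 and Ahrr), 8 without mouse 3 and 2 without mouse 4 (Grp and Ahrr). Without high-dose mouse 16 or 17 limma called 0 probes, although 4136 and 2931 had an unadjusted p under 0.05. Without mouse 19 it called 3 (Ahrr, H1f2 and the unnamed probe A_66_P116326), and without mouse 20 it called 15. Of 9 fits without a single array, Ahrr lost its call in 2, Nqo1 in 5 and each other called probe in 6 to 8. With only the arrays of the 2 groups in the fit 117 probes were called, and without the slide block 11. The genes named in parentheses here were picked out after their values were seen.

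**Figure D2:**
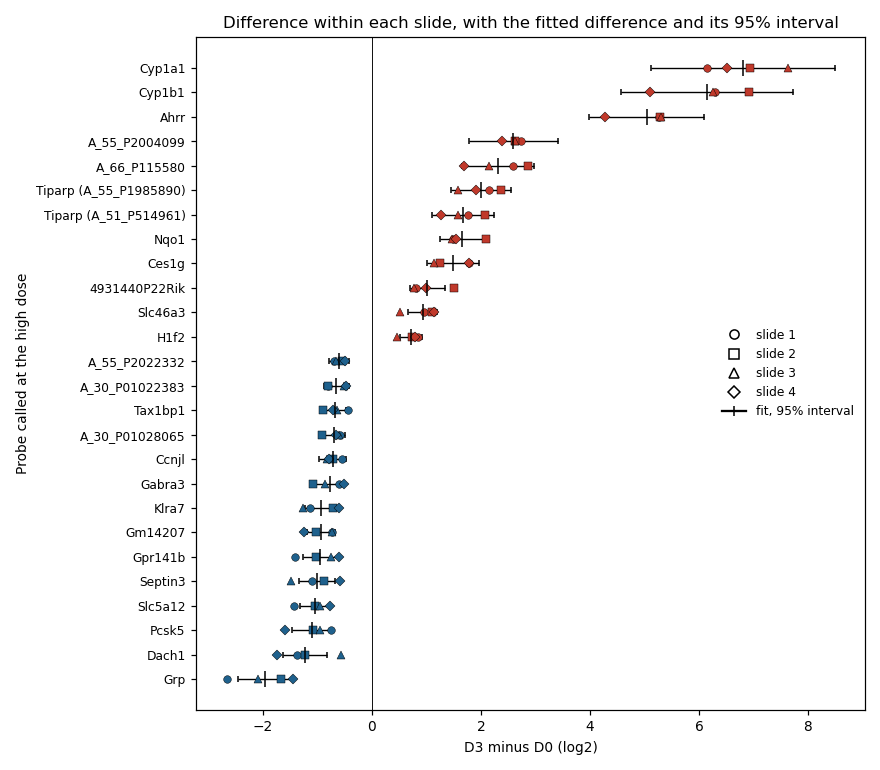
D3 minus D0 (x axis, log2) within each of the 4 slides (symbols) for the 26 called probes (y axis), with the fitted difference and its 95% interval as black bars. Every symbol of the 12 upper probes lies above 0 and every symbol of the 14 lower probes below 0.

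Of the 11 genes of the AhR battery, 9 were tested, all 9 were higher at the high dose, and 5 were called: Cyp1a1, Cyp1b1, Ahrr, Tiparp and Nqo1. Over all tested probes 50.9% were higher and 0.0795% were called. The median difference over the 9 genes was 1.65, against 0.0039 over all tested probes. Cyp1a1, the oxidase that is the classic read-out of AhR activity, had log2 ratios of 3.29, 2.35, 2.09 and 2.96 in vehicle lungs and 9.43, 9.29, 9.73 and 9.47 in high-dose lungs. The high-dose lungs were close together (SD 0.18, n = 4) and far above every vehicle lung (SD 0.55, n = 4). The difference was 6.81 (SE 0.77, 95% interval 5.12 to 8.49), a 112-fold increase, with an adjusted p of 0.0153 in limma. When single arrays were left out it stayed between 6.49 and 7.31, with adjusted p from 0.00383 to 0.0984, and the call was lost in 6 of 9 such fits: those without vehicle mouse 2, 3 or 4 or without high-dose mouse 16, 17 or 19. With the scanner software's own ratios the difference was 4.37 and the adjusted p 0.147, and without slide 3 or 4 the adjusted p was 0.119 and 0.146.

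Cyp1b1, the family member that lung and other tissues outside the liver express and that oxidises PAHs and oestrogens, had log2 ratios of −1.93, −2.64, −2.01 and −1.42 with vehicle. With the high dose they were 4.37, 4.27, 4.24 and 3.69. The groups were far apart, by 6.14 (SE 0.72, 95% interval 4.56 to 7.72), a 70.6-fold increase with an adjusted p of 0.0153. The call was lost without vehicle mouse 1, 2 or 4 or high-dose mouse 16, 17 or 19 (adjusted p of 0.0509 to 0.0984), without slide 1, 3 or 4, and under the scanner software's ratios (adjusted p of 0.119). Cyp1a2, the third oxidase of the family and mainly a liver enzyme, was not tested, because its probe was well above background on 1 of 4 arrays in each group.

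Ahrr, the repressor that competes with AhR for Arnt, had the smallest p of all probes. Its probe was not well above background on any vehicle array, where the ratios were −0.65, −0.74, −0.93 and −0.25. All 4 high-dose arrays were well above background, at 4.63, 4.55, 4.38 and 4.03. The difference was 5.04 (SE 0.48, adjusted p = 0.00898 in limma). As a bound, the increase was at least 31.4-fold, computed from the red channel after normalisation between arrays with each vehicle array set to the higher of its own signal and the lowest signal that counts as well above background. To rounding, the vehicle arrays' own signals set this bound, so it is the observed red-channel fold. The bound is open to dye bias, and the difference under the scanner software's ratios was 7.39. Ahrr was called in 7 of 9 fits with a single array left out, with adjusted p of 0.0515 and 0.0520 without mouse 16 and mouse 17. The call was also lost without slide 1, 3 or 4 (adjusted p of 0.143, 0.0717 and 0.146). A second, dimmer probe of Ahrr was 0.96 higher with an adjusted p of 0.109.

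Tiparp, an ADP-ribosyltransferase that feeds back on AhR, was called on 2 probes. The brighter probe went from −0.85, −0.82, −0.77 and −0.92 to 0.92, 1.25, 0.80 and 0.35, a difference of 1.67 (SE 0.26, adjusted p = 0.0496). The other probe differed by 2.00 (SE 0.25, adjusted p = 0.0200). Neither probe's groups overlapped. The call of the brighter probe was lost in 8 of 9 fits without a single array (each of the 8 vehicle and high-dose mice, adjusted p of 0.0544 to 0.218), without any 1 of the 4 slides, and in 5 of 11 other settings, and that of the other probe in 7 of 9. Nqo1, a quinone reductase that both AhR and the oxidative stress factor Nrf2 control, had vehicle ratios of −1.11, −1.31, −1.69 and −1.08 and high-dose ratios of 0.38, 0.78, −0.23 and 0.47. The lowest high-dose lung, mouse 19, was on the slide of the lowest vehicle lung, and the differences within slides were 1.49, 2.09, 1.46 and 1.55. Nqo1 thus rose by 1.65 (SE 0.19, adjusted p = 0.0153), or 3.13-fold. Without the slide block its adjusted p was 0.140, and the call was also lost without vehicle mouse 1 or 4 or high-dose mouse 16, 17 or 19 (adjusted p of 0.0509 to 0.0949). The same held without slide 1, 3 or 4 (adjusted p of 0.0717 to 0.311) and with the scanner software's ratios (a difference of 2.00, adjusted p of 0.119).

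The other 4 tested genes of the battery were not called. Ugt1a6a, a glucuronosyltransferase, was 0.53 higher, and Gsta1, a glutathione transferase, 0.62 higher. Cyp2s1, another oxidase, was 0.31 higher. Aldh3a1, an aldehyde dehydrogenase, had vehicle ratios of 0.43, 0.60, 0.44 and 0.32 and high-dose ratios of 1.23, 1.01, 0.43 and 1.84. High-dose mice 16, 17 and 20 were above every vehicle lung and mouse 19 was not, and the difference of 0.68 (SE 0.35) had an adjusted p of 0.450.

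**Figure D3:**
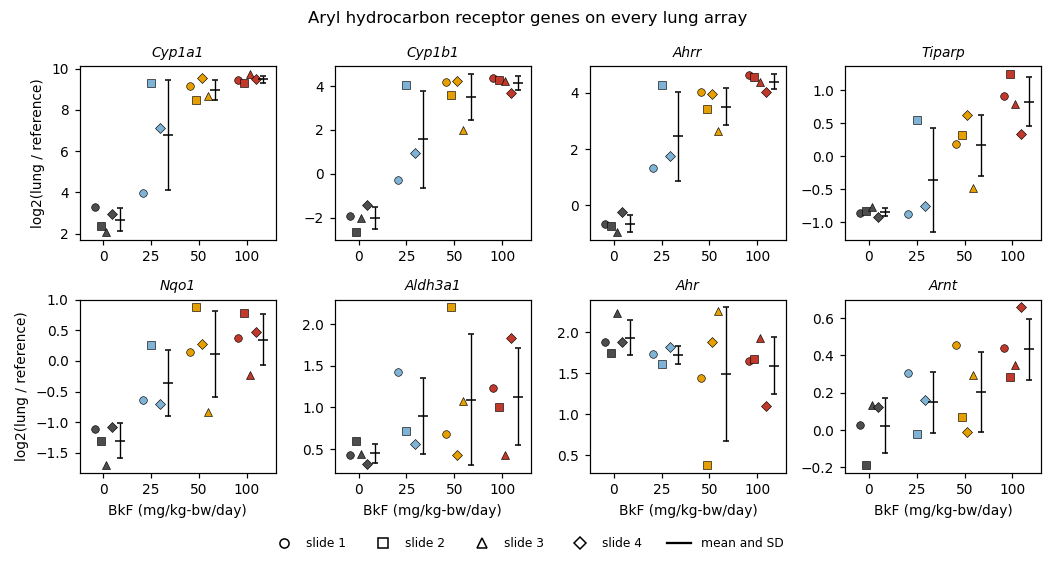
Log2 ratio of lung over reference RNA (y axis) on each lung array against the BkF dose in mg/kg-bw/day (x axis) for 8 genes of the AhR battery and its receptor complex, with symbols for slides and bars for mean and SD. Cyp1a1, Cyp1b1 and Ahrr lie far above the vehicle at the high dose and are spread widely at the low dose, whereas the high-dose means of Ahr and Arnt differ from the vehicle by −0.34 and 0.41.

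The receptor and its partners were not called. Ahr itself was 0.34 lower (SE 0.25, adjusted p = 0.602) and lower on all 4 slides on its brightest probe, and −0.11 with 2 slides each way on a dimmer one, and Arnt was 0.41 higher (SE 0.11, adjusted p = 0.176) and higher on all 4 slides, while a second, dimmer probe of Arnt was −0.08. Of 11 genes in the list of receptor components 10 were tested, 5 were higher and 5 lower, and the median was 0.00060.

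The values at the other doses are given side by side, because all 3 comparisons share the vehicle arrays. At the low dose Cyp1a1 was 3.96 in mouse 7, 9.28 in mouse 8 and 7.10 in mouse 9, so that mouse 8 was close to the high-dose lungs and mouse 7 to the vehicle. Cyp1b1 (−0.26, 4.04 and 0.94), Ahrr (1.34, 4.27 and 1.77) and Tiparp (−0.87, 0.55 and −0.74) were also highest in mouse 8. At the medium dose Cyp1a1 was 9.14, 8.46, 9.57 and 8.66. The 12 probes that rose at the high dose differed from the same vehicle arrays by 0.44 to 6.28 at the medium dose and by 0.16 to 4.04 at the low dose. In all, 11 probes (0.0336%) were called at the medium dose, Cyp1a1, Cyp1b1, Ahrr and Nqo1 among them, whereas Tiparp, 1.01 higher, was not called (adjusted p = 0.352).
Between the high and the medium dose, limma called 0 of 32701 probes, while 3873 (11.8%) had an unadjusted p under 0.05 and the smallest adjusted p was 0.392. The difference for Cyp1a1 was 0.52 (95% interval −1.17 to 2.21) and for Ahrr 0.88 (−0.17 to 1.94), so both intervals include 0. The largest difference among the 12 probes was that of the dimmer Tiparp probe, 1.00 (95% interval 0.44 to 1.55, adjusted p = 0.392).

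Outside the AhR battery, 6 further probes rose, 4 of them named. Ces1g, a carboxylesterase that hydrolyses esters and drugs, had vehicle ratios of 1.45, 1.59, 1.64 and 1.10 and high-dose ratios of 3.23, 2.84, 2.77 and 2.88. The groups were well apart, and the increase was 1.49 (SE 0.22, adjusted p = 0.0399), or 2.80-fold. The call was lost without any 1 of the 8 vehicle and high-dose mice (adjusted p of 0.0638 to 0.190), without slide 1, 3 or 4, and under the scanner software's ratios. Among the 8 carboxylesterases tested Ces1g was the only one called, 6 were higher and 2 lower, and the median was 0.18. Ces1f was 0.72 higher (adjusted p = 0.273), or 0.08 from the scanner software's ratios, and Ces2b 0.43 lower.
Slc46a3, a transporter of the lysosomal membrane, was 0.42, 0.39, 0.39 and 0.36 with vehicle and 1.38, 1.49, 0.91 and 1.49 with the high dose. The vehicle lungs were close together and all high-dose lungs were above them, by 0.93 on average (SE 0.12, adjusted p = 0.0213). H1f2, a linker histone that packs nucleosomes, went from 0.31, 0.24, 0.28 and 0.16 to 1.16, 0.99, 0.74 and 0.95, an increase of 0.71 (SE 0.09, adjusted p = 0.0213). Of 8 linker histone genes tested, H1f2 was the only one called. H1f4 was 0.73 higher (SE 0.22, adjusted p = 0.207), and the median of the list was 0.019. The brightest probe of 4931440P22Rik rose by 1.02 (SE 0.15, adjusted p = 0.0376), while another probe of that gene was 0.17 higher (adjusted p = 0.409).
A pair of probes without a name in the table used here also rose. Probe A_55_P2004099 went from between −0.31 and −0.17 to between 2.07 and 2.58, an increase of 2.59 (SE 0.37, adjusted p = 0.0347), and probe A_66_P115580 rose by 2.32 (SE 0.30, adjusted p = 0.0213), with 2 of 4 vehicle arrays well above background.

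Of the probes that fell, that of Grp changed most. Grp encodes gastrin-releasing peptide, which pulmonary neuroendocrine cells secrete. Its ratios were 2.78, 2.13, 2.76 and 1.46 in vehicle lungs and 0.12, 0.46, 0.67 and 0.01 in high-dose lungs. Every high-dose lung was below every vehicle lung, and the probe was well above background on 4 of 4 vehicle arrays and 1 of 4 high-dose arrays. The decrease was −1.97 (SE 0.23, 95% interval −2.47 to −1.47, adjusted p = 0.0153). It was −1.60 at the low dose and −1.92 at the medium dose, both against the same vehicle arrays, with 1 of 3 and 1 of 4 arrays well above background. At this level the probe gives no order among the 3 doses, and the size of the decrease depends on how background is treated. With the scanner software's background-subtracted ratios it was −4.74, and the adjusted p 0.138, and with only the 2 groups and no slide block the adjusted p was 0.0588. The call was also lost without vehicle mouse 1, 2 or 3 or high-dose mouse 16, 17 or 19 (adjusted p of 0.0509 to 0.0984), and without slide 1 or 3 (adjusted p of 0.255 and 0.119). Of 15 neuroendocrine markers tested, Grp included, 10 were higher and 5 lower, and the median was 0.10. Calca, another peptide of these cells, was 0.45 higher and Chga, of their secretory granules, 0.10 higher.
Other dim probes also fell. Slc5a12, a sodium-coupled lactate transporter, went from 1.69, 1.28, 1.40 and 0.85 to 0.26, 0.23, 0.45 and 0.08, a decrease of −1.05 (SE 0.13, adjusted p = 0.0166). Gpr141b, an orphan receptor gene, fell by 0.94 (SE 0.15, adjusted p = 0.0462), with 0 of 4 high-dose arrays well above background, which as a bound is at least 1.60-fold lower. A dim probe of Septin3, a cytoskeletal GTPase, fell by 1.01 (SE 0.15, adjusted p = 0.0399). Its bound, at least 1.93-fold, was to rounding the observed red-channel fold. The brightest probe of the gene differed by 0.07 (SE 0.09, adjusted p = 0.807). Of the 14 probes that fell, 7 were well above background on every array of both groups, and their median intensity was 6.54 on the log2 scale against 9.04 for those that rose and 7.85 for all tested probes. The probe of Slc5a12 was well above background on 1 of 4 high-dose arrays, and a second probe was −1.17 (adjusted p = 0.0629). The scanner software's background-subtracted ratios gave −2.52 for Slc5a12, −3.03 for Gpr141b and −2.92 for this Septin3 probe, none of them called.
The next 6 named probes that fell were well above background on at least 3 of 4 arrays of each group. Gabra3, a subunit of the GABA-A receptor, fell by 0.77 at the high dose (SE 0.12, adjusted p = 0.0496), 0.01 higher at the low dose and −0.12 at the medium dose. Its ratios were 2.88, 2.44, 3.14 and 1.59 with vehicle and 2.28, 1.36, 2.27 and 1.08 with the high dose. These groups overlapped, and the call came from differences within slides of −0.61, −1.09, −0.86 and −0.51. Pcsk5, a proprotein convertase, fell by 1.10 (SE 0.17, adjusted p = 0.0453) and was 0.36 higher, with no call, with the scanner software's ratios. Dach1, a transcriptional corepressor, fell by 1.23 on its dimmer probe (SE 0.18, adjusted p = 0.0376), and was −0.95 on its brighter probe (adjusted p = 0.185). Tax1bp1, an autophagy receptor that dampens inflammatory signalling, went from 1.18, 1.28, 1.56 and 1.02 to 0.74, 0.38, 0.92 and 0.30, a decrease of −0.68 (SE 0.09, adjusted p = 0.0213). Ccnjl, a cyclin-like gene, fell by 0.72 (SE 0.11, adjusted p = 0.0496) and Gm14207 by 0.93 (SE 0.12, adjusted p = 0.0198). The unnamed probe A_55_P2022332, well above background on 1 of 4 high-dose arrays, fell by 0.60 (SE 0.09, adjusted p = 0.0347).

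**Figure D4:**
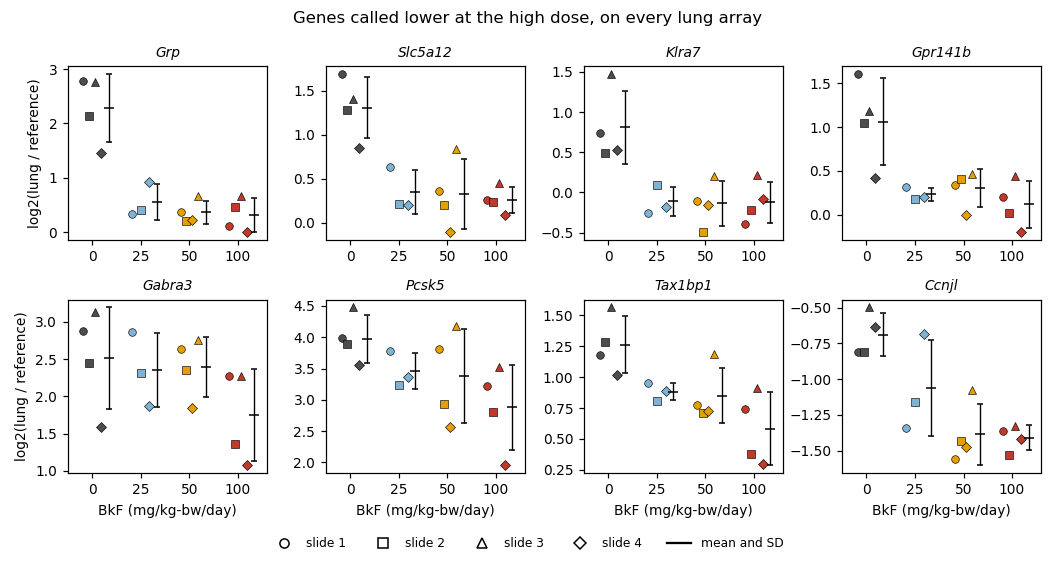
Log2 ratio of lung over reference RNA (y axis) on each lung array against the BkF dose in mg/kg-bw/day (x axis) for 8 genes called lower at the high dose, with symbols for slides and bars for mean and SD. Grp, Slc5a12, Klra7 and Gpr141b are near background on most arrays of the 3 dosed groups, and the vehicle and high-dose groups of Gabra3 overlap.

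Without the slide block 2 of the 14 probes were called, with the same differences, and with the scanner software's ratios none was, although 3719 probes in all had an unadjusted p under 0.05 in limma.

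A further pair of unnamed probes lay in 1 interval of the array design, chr8:40100925-40196350 on the forward strand of build mm9, of 95426 bases, in which the design placed 5 probes. Probe A_30_P01028065 fell by 0.69 (SE 0.09, adjusted p = 0.0213), from between −0.52 and −0.27 to between −1.21 and −0.87. Probe A_30_P01022383 fell by 0.65 (SE 0.10, adjusted p = 0.0496). Both were bright, and both were lower at the medium dose, by −0.44 and −0.48. Of the other 3 probes 1 was −0.30 (adjusted p = 0.208), 1 was −0.16 and 1 was 0.05.

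Klra7, an inhibitory receptor on natural killer (NK) cells, fell by 0.93 (SE 0.13, adjusted p = 0.0354), from 0.74, 0.49, 1.47 and 0.53 to −0.39, −0.21, 0.21 and −0.08. Its probe was well above background on 1 of 4 high-dose arrays, the difference computed with the scanner software's ratios was −2.32 (adjusted p = 0.231), and a dimmer second probe was −0.51 (adjusted p = 0.188). The list of T and NK cell markers holds 12 genes, all tested, none of which was called. In this list 7 genes were lower and 5 higher, with a median of −0.18, and 6 had an unadjusted p under 0.05, all lower, where 6.59% of all tested probes were lower at that p. Those 6, Gzma, Gzmb, Prf1, Ncr1, Klrb1c and Nkg7, differed by −2.05 to −0.29, with adjusted p from 0.0681 to 0.313. The other 6, among them the CD3 chains, Cd4 and Cd8a, differed by −0.08 to 0.17, with adjusted p from 0.780 to 0.972, and the difference between these genes was not tested.
Gzma, a granzyme of cytotoxic granules, had vehicle ratios of 5.51, 4.75, 5.73 and 4.68 and high-dose ratios of 3.09, 1.81, 4.18 and 3.37. All high-dose lungs were below all vehicle lungs, by 2.05 on average (SE 0.46), but the adjusted p was 0.147. Gzmb was −0.89 (SE 0.16, adjusted p = 0.0681), Ncr1, an activating NK receptor, −0.79 (SE 0.16, adjusted p = 0.115) and Prf1, the pore-forming protein, −0.44 (SE 0.11, adjusted p = 0.175). Without the array of medium-dose mouse 12 the adjusted p was 0.0372 for Gzma, 0.0234 for Gzmb and 0.0398 for Ncr1. Without the slide block it was 0.419, 0.410 and 0.462. From the scanner software's ratios, Gzmb differed by −0.08 (adjusted p = 0.960) and Ncr1 by −2.06 (adjusted p = 0.296). In bulk tissue, fewer cells of a type and less RNA per cell cannot be told apart.

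Nrf2 targets, genes of the oxidative stress response, were higher in 15 of 17 tested genes, with a median of 0.31 and 7 genes at an unadjusted p under 0.05, all higher. The list does not hold Nqo1, which was counted in the AhR battery, and none of its own members was called. Me1, which makes NADPH, was 0.48 higher (SE 0.09, adjusted p = 0.0906), Srxn1, a sulfiredoxin, 0.47 higher (adjusted p = 0.189), Gsr, glutathione reductase, 0.44 higher (adjusted p = 0.268), and Gstm1, a glutathione transferase, 0.38 higher (adjusted p = 0.270; 0.04 on a second probe), whereas Hmox1, haem oxygenase, was 0.51 lower. The share of tested probes at that p and higher was 6.23% over the whole array. In 24 alternative settings the median of the list stayed between 0.20 and 0.41. Of 16 phase II conjugation genes 12 were higher, with a median of 0.12, and Gstp1 was 0.39 higher (adjusted p = 0.202). Among 16 cytochrome P450 genes of families 2 to 4 the median was 0.02, and none was called. Cyp2r1, a vitamin D hydroxylase, was 0.40 higher (adjusted p = 0.296; 0.07 on a second probe) and Cyp2b10, a drug-metabolising oxidase, 0.26 higher (adjusted p = 0.343).
In the lists for DNA damage no gene was called. Of 18 p53 targets 9 were higher and 9 lower, and the median was 0.03. Cdkn1a, the cell cycle inhibitor p21, was −0.26 (SE 0.19, adjusted p = 0.592) and 0.15 on a dimmer probe, Mdm2, which degrades p53, 0.19 (adjusted p = 0.532) and Ccng1, cyclin G1, −0.21 (adjusted p = 0.734). Pmaip1, a pro-apoptotic member of the list, was −0.75 (SE 0.16, adjusted p = 0.120) and below every vehicle lung in all 4 high-dose lungs. Of 19 genes of nucleotide excision repair and lesion bypass 11 were higher and 8 lower, with a median of 0.0067. Ercc1, a subunit of the excision nuclease, was −0.35 (adjusted p = 0.258), Gtf2h1, a TFIIH subunit, 0.26 (adjusted p = 0.379) and Poli, a bypass polymerase, 0.22 (adjusted p = 0.365). Proliferation genes were higher in 16 of 19, with a median of 0.14 and none called. Ccna2 was 0.44 higher (adjusted p = 0.205), Rrm2 0.47 (adjusted p = 0.280), Birc5 0.49 (adjusted p = 0.357; 0.20 and 0.13 on 2 dimmer probes) and Cdc20 0.31 (adjusted p = 0.326).
Clock genes were spread in both directions, with 11 of 19 higher, 6 at an unadjusted p under 0.05 and higher, 1 lower at that p and none called. Dbp, an output factor of the clock, was −0.03, −1.62, −1.43 and 0.33 with vehicle and 0.84, 1.32, 0.66 and 1.59 with the high dose, 1.79 higher (SE 0.50, adjusted p = 0.189). Nr1d2 was 0.73 higher (adjusted p = 0.191) and Per3 0.54 higher (adjusted p = 0.274), and Arntl (Bmal1), the core activator that is in antiphase to these genes, was 0.97 lower (SE 0.26, adjusted p = 0.179). The time of day of collection for each mouse is not given in the sources used here. In retinoid metabolism 10 of 17 genes were higher, and the median was 0.12. Rdh10, which oxidises retinol, was 0.44 higher (SE 0.15, adjusted p = 0.258). Aldh1a2, which makes retinoic acid, was −1.18 (SE 0.32, adjusted p = 0.181), Aldh1a3, of the same family, −0.28 (adjusted p = 0.290) and Retsat, a retinol saturase, −0.71 (SE 0.19, adjusted p = 0.176).
Interferon-stimulated genes (8 of 16 higher, median −0.03), MHC class II genes (6 of 9 higher, median 0.17) and inflammatory cytokines and chemokines (8 of 14 higher, median 0.04) had no called member. Il1b, a cytokine of inflammation, was 0.62 higher (SE 0.28, adjusted p = 0.384), and H2-Oa, which acts in peptide loading, 0.72 higher (adjusted p = 0.381). Collagens and other matrix genes were lower in 11 of 14, with a median of −0.23, and Fbn1, of elastic fibres, was −0.45 (adjusted p = 0.238). The collagens Col4a1 and Col6a2 were −0.60 (adjusted p = 0.367) and −0.38 (adjusted p = 0.366), and leaving out single arrays moved Col4a1 between −0.79 and −0.24.

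**Figure D5:**
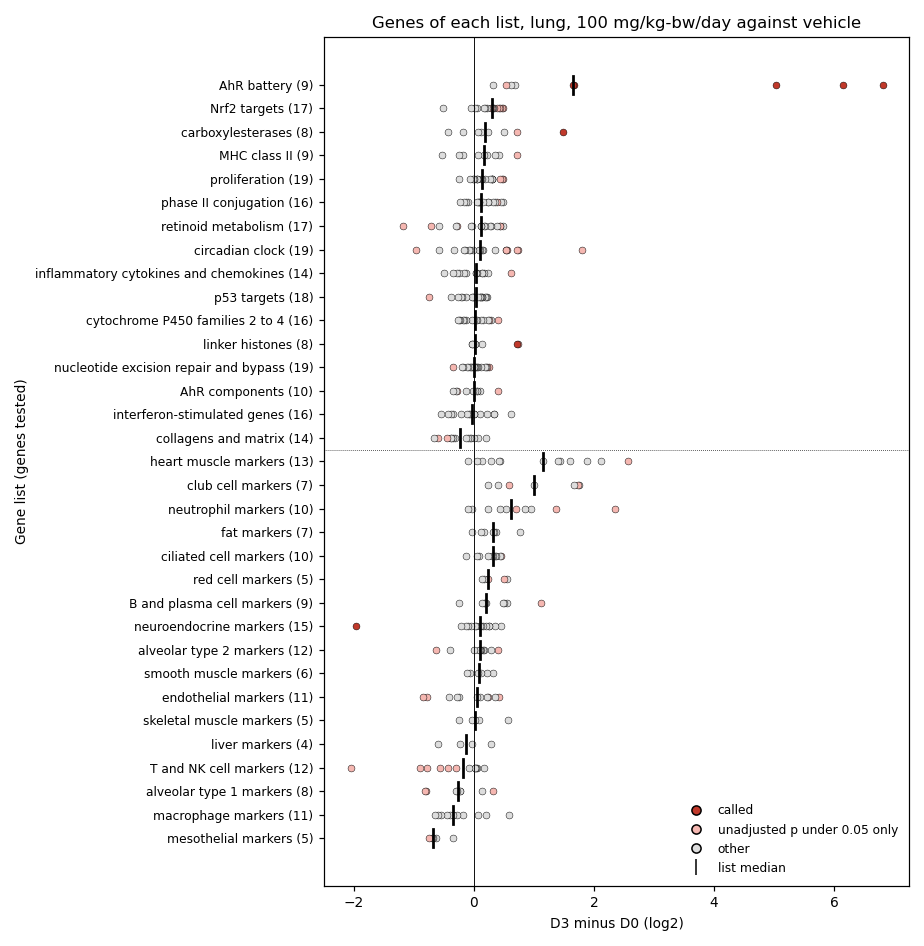
D3 minus D0 (x axis, log2) of each tested gene of the 33 lists (y axis, with the number of genes tested), pathway lists above the dotted line and cell type markers below, with list medians as black bars. The AhR battery stands apart at a median of 1.65. In the lists 8 of 378 genes were called, and over all tested probes 0.0795%. The lists were chosen with earlier results of these data known.

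Markers of cell types were compared to see which cells the slices held. Neutrophil markers were higher in 8 of 10, with a median of 0.62. Their mean log2 ratio was 2.05 to 2.37 on high-dose arrays against 1.38 to 1.74 on vehicle arrays. Medium-dose arrays were at 2.32 to 3.69, where 3.69 was mouse 12 and the next highest array was at 2.94. Mmp8, a collagenase of neutrophil granules, went from 0.59, 0.79, 1.41 and 0.44 to 3.66, 3.08, 3.73 and 2.19. All high-dose lungs were above all vehicle lungs, by 2.36 on average (SE 0.54), but the adjusted p was 0.149. It was 0.0418 without the array of medium-dose mouse 12, 0.00552 with only the 2 groups and the slide block, and 0.328 without the block. S100a9, a calcium-binding protein of neutrophils, was 0.69 higher (SE 0.18, adjusted p = 0.171) and S100a8, its partner, 1.36 higher (adjusted p = 0.321), while Csf3r, the receptor for granulocyte growth factor, was −0.09. Macrophage markers were lower in 8 of 11, with a median of −0.35 and 0 at an unadjusted p under 0.05.
Club cell markers were higher in 7 of 7, with a median of 1.00, but the median differed between slides with an SD of 1.62. The mean log2 ratio of the list was 2.78 to 4.16 on vehicle and 3.87 to 5.91 on high-dose arrays, so the groups overlapped, and over 24 alternative settings the median was 0.35 to 1.54. The 5.91 was mouse 20, and the other high-dose arrays were at 3.87 to 4.35. Scgb3a1, a secretoglobin of the airway, was 1.74 higher (SE 0.61, adjusted p = 0.268), or 0.63 from the scanner software's ratios, and Cldn10, a tight junction protein, 0.59 higher (SE 0.14, adjusted p = 0.155). Ciliated cell markers were higher in 9 of 10 with a median of 0.32, which ranged from 0.04 to 0.49 over those settings, and Tekt1, of cilia, was 0.46 higher (adjusted p = 0.326; 0.29 on a second probe). Alveolar type 2 markers were higher in 10 of 12 with a median of 0.10, with Sftpb, a surfactant protein, at 0.40 (adjusted p = 0.256; 0.23 on a second probe) and Napsa, an aspartic protease, at −0.62 (adjusted p = 0.338). Alveolar type 1 markers were lower in 6 of 8 with a median of −0.26. Emp2, a membrane protein, was −0.81 (adjusted p = 0.210; −0.28 on a second probe) and Col4a3, a basement membrane collagen, −0.81 (adjusted p = 0.210, but 0.57 higher from the scanner software's ratios), whereas Ager, a receptor on these cells, was 0.31 higher (adjusted p = 0.278). Endothelial markers were higher in 6 of 11 with a median of 0.04. Cdh5, the cadherin of endothelial junctions, was 0.41 higher (SE 0.17, adjusted p = 0.348) and Plvap, of endothelial fenestrae, 0.24 higher (SE 0.09, adjusted p = 0.280), both on all 4 slides, although a second probe of Plvap was −0.10 (adjusted p = 0.919). Ednrb, an endothelin receptor, was −0.84 (SE 0.26, adjusted p = 0.220) and Gpihbp1, which anchors lipoprotein lipase to capillaries, −0.78 (SE 0.22, adjusted p = 0.194), both lower on all 4 slides.
Heart muscle markers were higher in 12 of 13, with a median of 1.15. Their mean log2 ratio ranged from −0.06 to 2.22 on vehicle arrays and from 1.31 to 2.94 on high-dose arrays, so the groups overlapped, and the median was 0.37 to 1.92 over the alternative settings. The array of mouse 20 had heart muscle markers at 2.94 and fat markers at 2.54. The other high-dose arrays were at most at 1.78 and 1.83. Sln, a regulator of the calcium pump in atrial muscle, was 2.56 higher (SE 0.93, adjusted p = 0.285). Mesothelial markers, of the lining of the lung, were lower in 5 of 5 with a median of −0.69 (−1.29 to −0.36 over the settings), and Wt1, a transcription factor of these cells, was −0.75 (adjusted p = 0.388). Fat markers were higher in 6 of 7 with a median of 0.33, but that median ranged from −0.31 to 0.61 and changed sign in 2 of 24 settings. Red cell markers were higher in 5 of 5, with a median of 0.23, with the globin Hbb-bt at 0.50 (adjusted p = 0.218) and Alas2, of haem synthesis, at 0.23 (adjusted p = 0.378). B and plasma cell markers were higher in 8 of 9 with a median of 0.20, with Cr2, a complement receptor, at 1.12 (adjusted p = 0.272; 0.42 on a second probe), and smooth muscle markers in 4 of 6 with a median of 0.09. Skeletal muscle markers had a median of 0.02 and liver markers of −0.13. The part of these cell mixtures in the called genes was not tested.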

How the data were processed

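Lung RNA of 15 mice was hybridised by the authors to 2-colour Agilent mouse arrays, with Cy5 on the lung RNA and Cy3 on a universal mouse reference RNA and no dye swap. The deposited scanner files give median intensity values (linear) and a log10 ratio for every spot, and per the file headers Feature Extraction 10.7.3.1 made them. The authors also deposited log2 ratios, LOWESS-normalised without background subtraction, in a single table. Its lung columns correlated with the ratios made here at r of 0.997 to 0.999. Here the medians, without background subtraction, went through within-array loess (limma 3.58.1, R 4.3.3, version 1.17.8 of data.table). Control and flagged spots (0.365%) were left out, spots of a probe were averaged, and probes well above background on at least 3 lung arrays were tested. limma replaced MAANOVA, with all 15 arrays in 1 fit, dose group and slide as terms, and Benjamini-Hochberg adjustment over all tested probes; all p-values are two-sided. A bound on a fold used the red channel after loess and Aquantile normalisation. The script was tested on simulated data.

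Probes were named through RefSeq accessions with names of assembly GRCm38.p6 (26413 of 55681). The text names every called gene, the AhR and p53 genes of a fixed list, and from each of 33 gene lists up to 4 genes at an unadjusted p under 0.05, apart from withheld items. Further list members are named as examples chosen after their values were seen. A gene was represented by its brightest probe. The members and lists were chosen with earlier results of these data known. The number of arrays limits the precision. Alternative settings were no block, a random block, only the 2 groups, other background corrections, ratios and scalings, other filters, a trend on intensity, and leaving out arrays or slides. Some items withheld from this text are not reported here.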

Additional observations from a re-analysis of the deposited data

Results flagged for a closer look

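In 5 of 178 groups of 4 arrays checked for named probes (2.81%), 1 array stood far from the other 3, with a Dixon's ratio above its 95% critical value. Chance alone gives about 1 in 20. Cdkn1a was −1.56 in high-dose mouse 20 and −0.74 to −0.69 in the other 3 high-dose lungs. Pmaip1 was −0.0030 in high-dose mouse 19 against −0.56 to −0.47 in the others. The unnamed probe A_30_P01022383 was −0.65 in high-dose mouse 19 and −1.08 to −1.04 in the others. Among vehicle lungs, Retsat was −0.46 in mouse 4 against −0.08 to −0.02, and Birc5 was −4.36 in mouse 2 against −4.51 to −4.48.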

How the results depend on the processing

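As reported, 26 probes were called between the high dose and the vehicle, 8 of them list genes, and 0 between the high and the medium dose (limma, 3873 at an unadjusted p under 0.05). The count against the vehicle was 11 without the slide block (with 2 lower), 117 with only the 2 groups and the block (13 list genes), 15 with only the 2 groups and no block, and 1, which is Ahrr, with the scanner software's ratios (1 list gene). It was 32 with a random block, of which 22 were among the 26, and 19 to 28 in the other 6 settings on background, ratios, scaling, filters and trend. Leaving out single arrays gave 0 to 172 probes and 0 to 16 list genes against the vehicle and 0 to 1 against the medium dose (Runx1, without mouse 12). Leaving out slide 1, 2, 3 or 4 gave 1 (Cyp1a1), 16, 0 and 1 (Grp) probes and 1, 6, 0 and 1 list genes, and without slide 2 the high against the medium dose gave 1, again Runx1. Without slide 3 limma called 0 probes, with 3866 at an unadjusted p under 0.05. The scanner software's ratios turned the direction of Pcsk5 to 0.36, of Septin3 on its brightest probe to −0.0269 and of Col4a3 to 0.57, and no other of the 26 called and 63 uncalled probes recomputed (the brightest probe of each gene under the naming rule) changed direction. Those ratios also moved Ccnjl to −1.19, Gm14207 to −0.62, A_55_P2022332 to −1.79 and A_66_P115580 to 3.78. Among uncalled probes, over the settings other than leaving out an array or slide, Per3 was 0.54 to 1.01 and Wt1 −1.36 to −0.74. Aldh1a3 was −0.92 to −0.27, Prf1 −0.72 to −0.43 and the brighter Dach1 probe −0.98 to −0.46. The causes were not tested, other than the lower number of arrays by construction. Over all alternatives, the 26 called probes kept their call in 266 of 621 values, lost it in 354 and turned in 1.

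By replicate number, no paired analysis was possible because the vehicle and high-dose mice carry different numbers. Arrays were paired by slide instead, and with only the 2 groups in the fit this slide pairing gave the 117 probes above. Probes not well above background have only a bound there.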
